A study of Homo sapiens with 4 samples.

Results

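The genes described here encode the centromere and the kinetochore, and 39 were chosen by name: the constitutive centromere network, the factors that load CENPA, the KNL1, MIS12 and NDC80 complexes, the SKA complex, the shugoshins and the spindle checkpoint. They were chosen with earlier results of these data known, so counts over them describe the list and are not an independent test. Each gene was read from its brightest probe set, by mean signal over the arrays, among those annotated to that gene alone. Such a probe set existed for 38 of the 39, out of 19775 genes on the array, and all 38 were bright enough to be tested, out of 12296. The remaining gene, CENPP, shares its probe set with another symbol.

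Expression was measured on Affymetrix arrays in SKOV3, an established human ovarian carcinoma line, in 2 samples treated with rhSTIP1 and 2 control samples without it. Here rhSTIP1 is taken to mean recombinant human STIP1, a cochaperone of HSP70 and HSP90 that cells also secrete. The sources used here give no dose, duration or culture conditions, and a single cell line was used. Whether the 2 samples of a group were grown separately is not stated in the labels, and p-values therefore reflect the spread between these particular samples, which may be technical.

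The centromere is the part of a chromosome marked by nucleosomes that hold the histone variant CENPA. The constitutive centromere network sits on these nucleosomes throughout the cell cycle, and in mitosis the outer kinetochore assembles on it and binds spindle microtubules. Checkpoint proteins gather at kinetochores that lack microtubules and hold back anaphase. Many of these genes are transcribed mainly in late S phase, G2 and mitosis, so their transcript level in a population of cells depends on how many cells are in those phases. The arrays measure transcripts from all cells together, and fewer cells in G2 and mitosis cannot be told apart from less RNA per cell.

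Values are MAS5 signals, a linear intensity scaled to an equal trimmed mean on every array. Pearson correlations between arrays, on the log2 scale over all tested genes, ran from 0.952 to 0.979. Degraded RNA raises the ratio of 3′ to 5′ signal, and for ACTB this ratio was 2.62 and 8.79 on rhSTIP1 arrays 1 and 2, against 2.74 and 2.45 on control arrays 1 and 2. The same ratio of GAPDH was 0.992 and 1.32 on the rhSTIP1 arrays and 0.987 and 1.16 on the controls. All 12 markers of ovarian carcinoma epithelium, among them ERBB2, PAX8 and EPCAM, were at or above the level needed for testing. Their mean signals ran from 244, for MSLN, to 12169, for ERBB2. Of the markers of other cell types that had a usable probe set, 0 of 4 for leukocytes, 1 of 4 for endothelium and 3 of 6 for fibroblasts were, and all 3 of those fibroblast markers (COL1A1, COL1A2 and DCN) had mean signals of at most 208.

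Transcripts of most centromere and kinetochore genes were lower on average with rhSTIP1. The log2 fold change was below 0 for 36 of the 38 genes, against 46.8% of all tested genes, and its median was -0.98 over the members and 0.02 over all tested genes. Quartiles were -1.33 and -0.57 over the members, and -0.17 and 0.18 over all tested genes. The 2 genes above 0 were MIS12 and SGO1. HJURP had the lowest value of the members at -2.27 ± 0.33 (standard error of the limma fit, as for all values after ±), followed by NDC80 at -1.83 ± 0.39 and SKA1 at -1.72 ± 0.53. This order depended on the arrays: without rhSTIP1 array 1, SKA1 had -2.47, CENPA -2.21, NDC80 -2.15 and HJURP -1.98. Of the 100 tested genes with the lowest fold changes on the array, 13 were members, and of the lowest 500, 25 were.

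A gene is called separated here when each rhSTIP1 array lay below each control and the groups differed by at least 1.5-fold on the log2(signal + 16) scale. That held for 26 of 38 members, and 3.79% of all tested genes were separated in this direction. Without the size limit, both rhSTIP1 arrays lay below both controls for 30 members, against 14.9% of all tested genes. At an unadjusted p under 0.05 in limma's test, 23 members were lower, against 2.64% of all tested genes, and 0 were higher, against 1.04%. Separated in the other direction, higher with rhSTIP1, were 0 members and 1.9% of all tested genes. After Benjamini-Hochberg adjustment over all 12296 genes, 0 members and 0 genes passed, and adjusted p among the members ran from 0.486, for HJURP, to 0.999. For 1 gene and 2 arrays in each group, the smallest p of an exact two-sided permutation test is 0.333.

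**Figure D1:**
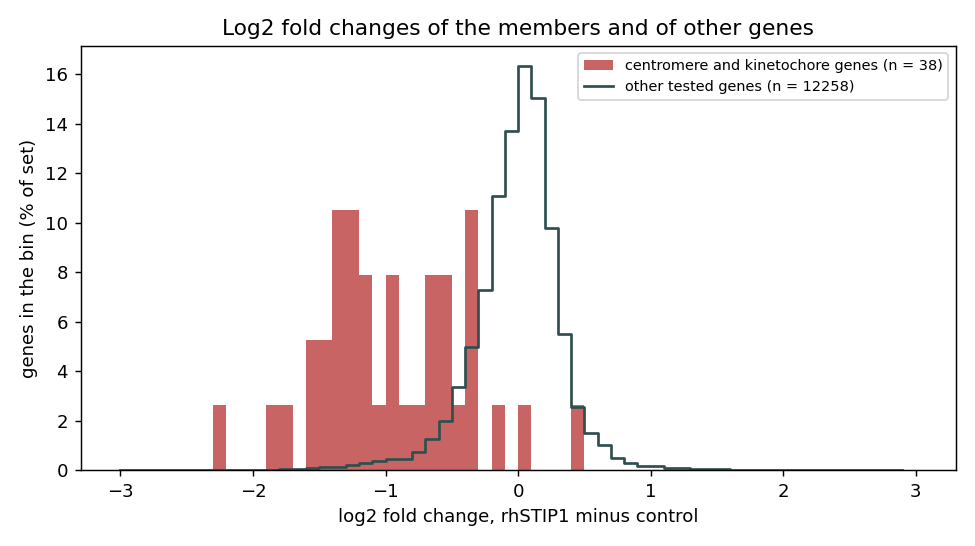
Histogram of log2 fold changes (x axis, rhSTIP1 minus control, bins of equal width) as the percentage of genes in each bin (y axis), with bars for the 38 centromere and kinetochore genes and a line for the 12258 other tested genes, of which 2 lie beyond 3 on either side and are not drawn. The bars lie mostly to the left of the line, with 36 members below 0.

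The arrays of each group also differed from each other over these genes. Of the rhSTIP1 arrays, array 2 lay below array 1 for 30 of 38 members, by a median of -0.28 on the log2 scale, against 46.4% of all tested genes. Control array 2 lay below control array 1 for 35 members, by a median of -0.85, against 46.8% of all tested genes. The array with the high ACTB ratio, rhSTIP1 array 2, was the lowest of all arrays for 28 members, against 22.1% of all tested genes. Control array 1 was the highest for 35 members, against 24.4% of all tested genes. The groups differed by more than the controls did for 26 members, against 35.3% of all tested genes. The closest arrays of opposite groups were rhSTIP1 array 1 and control array 2, with a median difference of -0.27, and rhSTIP1 array 1 lay above control array 2 for 7 members, against 46.9% of all tested genes.

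How much lower the members were therefore depended on the arrays used. Leaving out rhSTIP1 array 1 gave a median of -1.11, and leaving out rhSTIP1 array 2 gave -0.80. Leaving out control array 1 gave -0.71, and leaving out control array 2 gave -1.42. At an unadjusted p under 0.05, 14 members were lower without rhSTIP1 array 2, where 3.16% of all tested genes were, and 9 without control array 1, where 1.28% were. Separated were 23 members without rhSTIP1 array 2, where 7.71% of all tested genes were, and 20 without control array 1, where 5.32% were. Whether the RNA quality that the ACTB ratio describes has a part in the members' values was not tested.

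Promoters are shown for the 3 members with the lowest fold changes with all arrays and for the 3 nearest 0, because the members were lower together and many genes of mitosis share 2 promoter elements. CHR, the cell cycle genes homology region, is bound by the MuvB core of the DREAM and MYBL2-MuvB complexes, and CCAAT is bound by NF-Y. The sequences are RefSeq windows on GRCh38.p14 from 250 bases before to 50 after the annotated start, on the strand of the gene, with CHR (TTTGAA or TTCGAA) and CCAAT in capitals on either strand.
HJURP: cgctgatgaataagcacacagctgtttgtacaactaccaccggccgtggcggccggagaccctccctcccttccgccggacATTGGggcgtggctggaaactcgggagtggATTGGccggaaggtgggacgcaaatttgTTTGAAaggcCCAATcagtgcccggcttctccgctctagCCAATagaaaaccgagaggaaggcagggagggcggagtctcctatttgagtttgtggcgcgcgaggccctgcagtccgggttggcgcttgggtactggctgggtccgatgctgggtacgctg
NDC80: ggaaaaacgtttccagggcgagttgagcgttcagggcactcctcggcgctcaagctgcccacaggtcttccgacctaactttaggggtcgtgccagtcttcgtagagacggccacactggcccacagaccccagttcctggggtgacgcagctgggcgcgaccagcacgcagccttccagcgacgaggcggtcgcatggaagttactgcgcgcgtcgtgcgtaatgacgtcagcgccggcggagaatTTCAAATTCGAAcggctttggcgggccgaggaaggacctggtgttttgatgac
SKA1: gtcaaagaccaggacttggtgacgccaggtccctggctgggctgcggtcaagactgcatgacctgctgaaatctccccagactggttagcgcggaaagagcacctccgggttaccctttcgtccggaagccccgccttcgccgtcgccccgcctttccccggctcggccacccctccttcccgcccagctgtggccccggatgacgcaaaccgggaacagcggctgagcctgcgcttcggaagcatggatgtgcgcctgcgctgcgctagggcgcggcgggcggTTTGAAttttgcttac
SGO1: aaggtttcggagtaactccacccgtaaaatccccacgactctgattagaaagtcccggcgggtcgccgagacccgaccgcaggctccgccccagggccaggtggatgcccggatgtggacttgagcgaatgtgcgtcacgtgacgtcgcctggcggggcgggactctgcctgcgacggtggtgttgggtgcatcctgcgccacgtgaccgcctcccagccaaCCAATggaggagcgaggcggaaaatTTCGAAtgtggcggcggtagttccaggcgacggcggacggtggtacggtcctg
PMF1: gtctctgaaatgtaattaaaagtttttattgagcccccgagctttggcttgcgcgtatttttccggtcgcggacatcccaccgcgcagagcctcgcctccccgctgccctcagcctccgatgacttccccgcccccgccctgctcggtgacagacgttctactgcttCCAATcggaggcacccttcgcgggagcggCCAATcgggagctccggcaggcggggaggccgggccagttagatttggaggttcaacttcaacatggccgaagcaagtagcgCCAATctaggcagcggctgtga
CENPC: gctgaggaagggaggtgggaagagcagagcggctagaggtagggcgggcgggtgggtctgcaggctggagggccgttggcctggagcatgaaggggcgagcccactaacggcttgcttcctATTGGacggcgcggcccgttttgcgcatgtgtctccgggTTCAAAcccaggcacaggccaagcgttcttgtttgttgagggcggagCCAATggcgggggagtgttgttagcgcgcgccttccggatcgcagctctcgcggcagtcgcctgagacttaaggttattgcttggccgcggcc
The windows are chr2:233854486-233854785 (minus strand) for HJURP, chr18:2571307-2571606 (plus) for NDC80, chr18:50374796-50375095 (plus) for SKA1, chr3:20186157-20186456 (minus) for SGO1, chr1:156212757-156213056 (plus) for PMF1 and chr4:67545454-67545753 (minus) for CENPC.

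The HJURP window holds 1 CHR match, 111 bases before the start, among 4 CCAAT matches. In NDC80 a CHR match begins 3 bases before the start and another begins at base 4 after it, side by side without overlap, and SKA1 has 1 match at base 35. Of the genes near 0, SGO1 also has a CHR match, 3 bases before the start, CENPC has 1 at 90 bases before it, and PMF1 has 3 CCAAT matches and no CHR match. CHR letters were thus present in all 3 of the lowest members and in 2 of the 3 nearest 0. Those 2 did not stay near 0 in every fit. With 1 array left out SGO1 ran from -0.48 to 0.64 and CENPC from -0.67 to 0.02.

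Windows were available for 31 tested members, and the first listed window of a gene was used. CHR letters were in 18 of the 31 (58.1%) and in 16.6% of 27305 genes' windows, and CCAAT was in 20 (64.5%) and in 35.7% of all windows. An E2F-like motif, spelled TTTGGCG in one form, TTTCCCG in the second and TTTCGCG in the third and read on either strand, was in 5 (16.1%) and in 7.28% of all windows. None of these motifs contains another, and shares are descriptions without a test. The 27305 genes include those not tested on the arrays, unlike the shares of all tested genes given elsewhere. Of 20 CHR matches in the members, 18 began no more than 100 bases before the start, or after it, against 40.9% of the matches in all windows. Members with CHR letters had a median log2 fold change of -1.12 and a range from -2.27 to 0.08, and the 13 without had a median of -0.72 and a range from -1.57 to 0.48. Counting only matches from 100 bases before the start onward, which moves HJURP to the other side, the medians were -1.01 for 17 members with and -0.82 for 14 without. Those with CCAAT had a median of -0.90 and the 11 without had -1.26. A match is not a bound site.

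CENPA and its loading factors place the histone variant at the centromere, and all 4 genes were below 0 (median -1.07, 3 separated). HJURP, the chaperone that deposits CENPA, had signals of 324 and 493 on rhSTIP1 arrays 1 and 2, against 2584 and 1538 on control arrays 1 and 2, a 4.83-fold difference (log2 fold change -2.27 ± 0.33, adjusted p = 0.486). Both rhSTIP1 arrays were far below both controls, and the gap between the groups was wider than that within either. OIP5, a subunit of the MIS18 complex that licenses CENPA loading, had 1522 and 1017 with rhSTIP1 and 3287 and 1624 in the controls (-0.88 ± 0.37). Its partner MIS18A had 1527 and 1079.8 with rhSTIP1 and 2226 and 1797 in the controls (-0.63 ± 0.27). Both were separated, but rhSTIP1 array 1 came within a small distance of control array 2.

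CENPA itself, chosen for its role, was lower on average without being separated. Its signals were 2128 and 561 with rhSTIP1, against 4375 and 1606 in the controls (-1.26 ± 0.65, adjusted p = 0.999). Here rhSTIP1 array 1 lay above control array 2, and both groups spanned a wide range, with array 2 of each group the lower one. A brighter probe set shared with the symbol SLC35F6 was not used for CENPA, and it had a log2 difference of -1.55 and overlapping groups too.

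The constitutive centromere network had 12 tested genes, all below 0, with a median of -0.78 and 8 of them separated. CENPM, of the group around CENPH, CENPI and CENPK, had signals of 662 and 432 with rhSTIP1 and 1772 and 1068 in the controls (-1.34 ± 0.33). CENPO had 329.7 and 389 with rhSTIP1 and 696 and 724 in the controls (-0.96 ± 0.24). CENPU, which works with CENPO and docks the kinase PLK1, had 3226 and 2745 with rhSTIP1 and 6434 and 4887 in the controls (-0.91 ± 0.23). All 3 were separated, and for CENPO the controls were nearly equal, unlike for most members. CENPC, which links CENPA nucleosomes to the outer kinetochore, had 288 and 307 with rhSTIP1 and 483 and 293 in the controls (-0.32 ± 0.31). Its groups overlapped, since 3 of the arrays were alike and control array 1 stood above them, and without that array its fold change was 0.02.

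Within the network, genes of one complex had unequal fold changes. CENPI and CENPK were separated at -1.57 ± 0.51 and -1.20 ± 0.34, while their partner CENPH had -0.51 ± 0.25 and missed the size limit. The fold change of CENPI depended on the probe set, since a second one of its own gave a log2 difference of -0.50 with overlapping groups. CENPL and CENPN, which form a pair that recognises the CENPA nucleosome, were separated at -1.16 ± 0.32 and -0.63 ± 0.29. A CENPN probe set almost as bright as the chosen one had -0.72 with overlapping groups, and a dimmer one was separated at -0.87. CENPW was separated at -0.66 ± 0.32, and CENPT, its histone-fold partner, had -0.34 ± 0.27. CENPQ, of the group with CENPO and CENPU, had -0.55 ± 0.28. The differences between these genes were not tested.

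**Figure D2:**
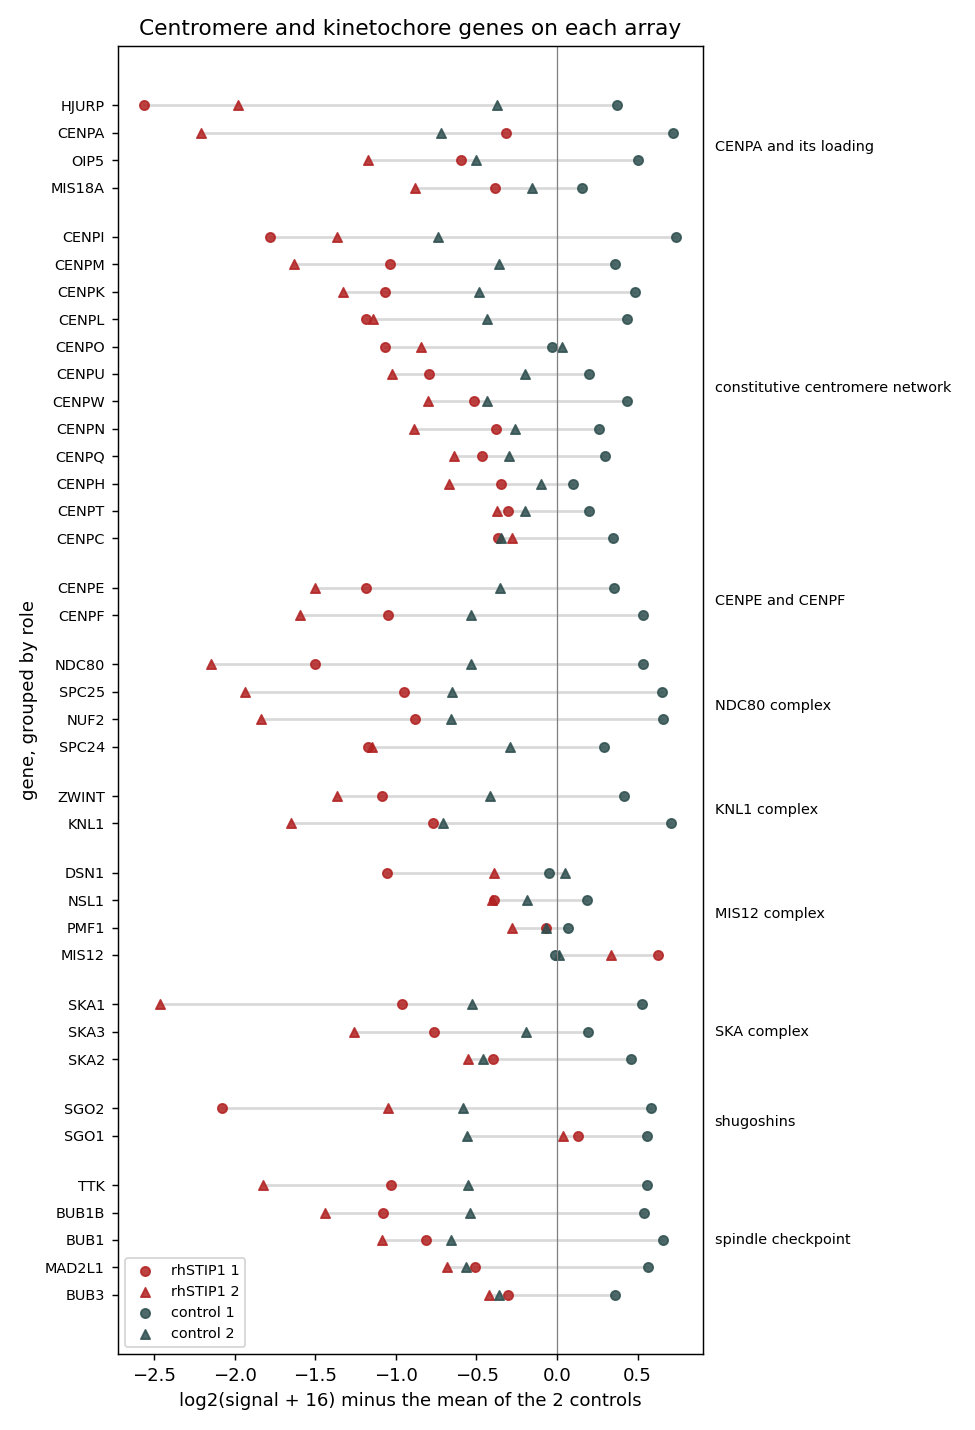
Level of each of the 38 tested genes on rhSTIP1 arrays 1 and 2 (red) and control arrays 1 and 2 (dark), as log2(signal + 16) minus the mean of both controls (x axis), with genes grouped by role down the page. For 30 genes both red points lie left of both dark points, and control array 1 is the rightmost point for 35.

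CENPE and CENPF, of the outermost layer, were both separated. CENPE, a kinesin that carries chromosomes towards the middle of the spindle, had signals of 593 and 473 with rhSTIP1 and 1755 and 1069 in the controls (-1.35 ± 0.30, adjusted p = 0.702). CENPF, a large coiled-coil protein of the same layer, had 1024 and 696 with rhSTIP1 and 3108 and 1472 in the controls (-1.32 ± 0.38). For both of the probe sets used, the higher rhSTIP1 array was clearly under the lower control. A dimmer probe set of CENPF gave a log2 difference of -0.86 with overlapping groups.

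The NDC80 complex, the main microtubule-binding unit of the kinetochore, had a median of -1.40, the lowest of the 9 roles with all arrays, and all 4 subunits were separated. That rank was lost to CENPE and CENPF on leaving out rhSTIP1 array 2 (-1.06 for the NDC80 complex and -1.12 for the pair) or control array 1 (-0.83 and -0.89). Raising the filter to the 70th percentile left SGO2 alone of the shugoshins, at -1.57. NDC80, which binds the microtubule, had signals of 1069.7 and 678 with rhSTIP1, against 4441 and 2105 in the controls (-1.83 ± 0.39, adjusted p = 0.702). SPC24 and SPC25 form the other end of the complex, which attaches it to the inner kinetochore. SPC24 had 312 and 318 with rhSTIP1 and 889 and 588 in the controls (-1.16 ± 0.28). SPC25 had 793 and 392 with rhSTIP1 and 2446 and 980.1 in the controls (-1.45 ± 0.48). The rhSTIP1 arrays were nearly equal for SPC24, whereas for SPC25 rhSTIP1 array 1 approached control array 2. NUF2, which pairs with NDC80, had -1.36 ± 0.48.

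Both genes of the KNL1 complex, a scaffold for checkpoint proteins, were separated. KNL1 had signals of 1739 and 935 with rhSTIP1 and 4864 and 1815 in the controls (-1.21 ± 0.48). For KNL1 rhSTIP1 array 1 and control array 2 were almost level, so its separation rested on a narrow margin. ZWINT, which connects KNL1 to the complex that recruits dynein, had 2523 and 2073 with rhSTIP1 and 7174 and 4014 in the controls (-1.22 ± 0.31). Its groups were well apart.

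The MIS12 complex, which joins the inner to the outer kinetochore, had the median nearest to 0 of the 9 roles (-0.28), and 1 of its 4 subunits was separated. That subunit was DSN1, with signals of 254 and 412 with rhSTIP1 and 527 and 564 in the controls (-0.72 ± 0.30). NSL1 had 1721 and 1707 with rhSTIP1 and 2568 and 1988 in the controls (-0.40 ± 0.24), with no overlap but under the size limit. PMF1 had 1329 and 1148 with rhSTIP1 and 1463 and 1328 in the controls (-0.17 ± 0.23), and its arrays were close to each other. MIS12 had the highest fold change of the members, with signals of 1062 and 864 with rhSTIP1, against 676 and 689 in the controls (0.48 ± 0.24, unadjusted p = 0.0843, adjusted p = 0.999). Both rhSTIP1 arrays were above both controls for MIS12, which held for 1 member and 14% of all tested genes, but the size limit was not reached.

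**Figure D3:**
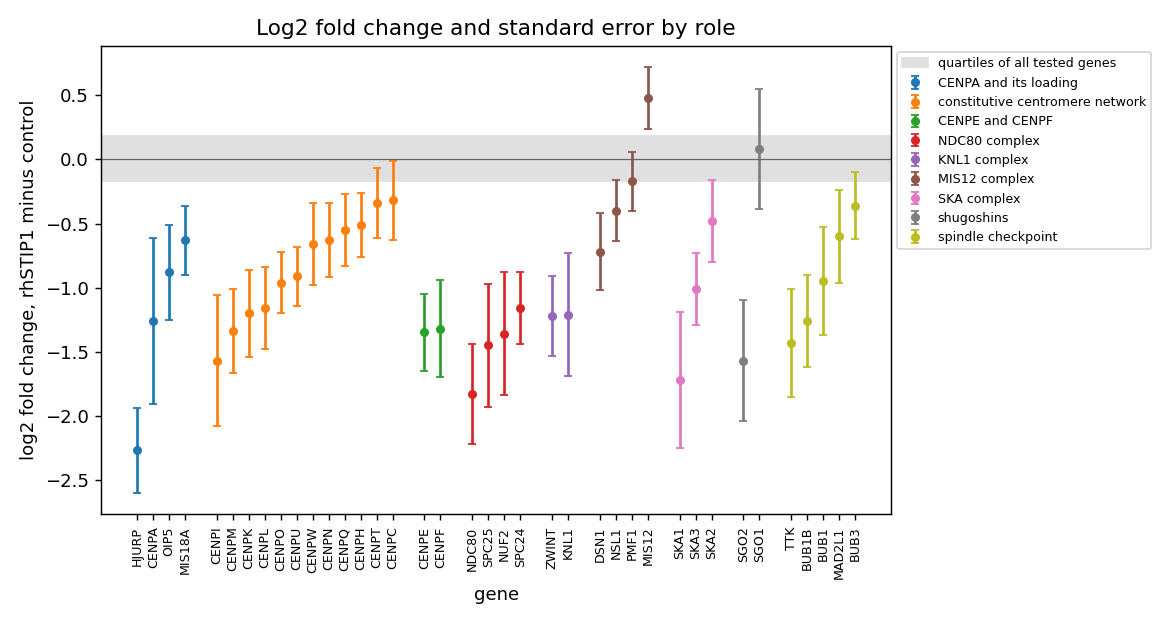
Log2 fold change, rhSTIP1 minus control (y axis), of each tested member (x axis), grouped and coloured by role, with bars of 1 standard error of the limma fit and a grey band for the quartiles of all tested genes (-0.17 to 0.18). All 4 NDC80 subunits lie below -1, whereas 3 MIS12 complex subunits lie nearer to the band or above it.

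Of the SKA complex, which helps the kinetochore follow the ends of microtubules, 2 of 3 genes were separated. SKA1 had signals of 598 and 201 with rhSTIP1 and 1711 and 815 in the controls (-1.72 ± 0.53). SKA3 had 485 and 339 with rhSTIP1 and 955 and 730.3 in the controls (-1.01 ± 0.28). Both were separated, and rhSTIP1 array 2 was the lowest array for both. SKA2 had 2890 and 2590 with rhSTIP1 and 5253 and 2764 in the controls (-0.48 ± 0.32). Its groups overlapped, and its other probe set gave a log2 difference of -0.56. The fold change of SKA2 was -0.01 without control array 1 and -0.94 without control array 2. Differences between the 3 genes were not tested.

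The shugoshins protect cohesin at the centromere. SGO2 had signals of 184 and 393 with rhSTIP1 and 1255 and 549.6 in the controls (-1.57 ± 0.47, adjusted p = 0.897). It was separated, and the second SGO2 probe set gave a log2 difference of -1.57 as well. Its lowest array was rhSTIP1 array 1, as it was for 8 of 38 members in all, HJURP among them, against 27% of all tested genes. SGO1 was dim, at 90.9 and 84.5 with rhSTIP1 and 128 and 50.5 in the controls (0.08 ± 0.47). Both rhSTIP1 values lay between those of the controls, and without control array 2 the fold change of SGO1 was -0.48.

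Of the 5 spindle checkpoint genes all were below 0 (median -0.95) and 3 were separated. Leaving out control array 1 gave a median of -0.29. BUB1B, part of the complex that inhibits the anaphase-promoting complex, had signals of 2372 and 1845 with rhSTIP1 and 7343 and 3457 in the controls (-1.26 ± 0.36). TTK, the kinase that starts checkpoint signalling, had 849 and 484 with rhSTIP1 and 2587 and 1189 in the controls (-1.43 ± 0.42). BUB1, a kinase that binds KNL1 and marks centromeric chromatin, had 353 and 289.6 with rhSTIP1 and 1005 and 395 in the controls (-0.95 ± 0.42). These 3 were separated, although control array 2 was nearer to the rhSTIP1 arrays than to control array 1 for BUB1. BUB3, the adaptor that brings BUB1 and BUB1B to KNL1, had 6527 and 6011 with rhSTIP1 and 10355 and 6257 in the controls (-0.36 ± 0.26). MAD2L1, which holds CDC20 inactive, had -0.60 ± 0.36. For BUB3 and MAD2L1 the groups overlapped, with control array 1 standing above the other arrays. Without that array the fold change was 0.00 for BUB3 and -0.03 for MAD2L1. Some dimmer probe sets of both genes had no overlap. Of these, 1 of MAD2L1 was separated, with a log2 difference of -0.97. The 2 of BUB3, at -0.42 and -0.56, were under the size limit.

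**Figure D4:**
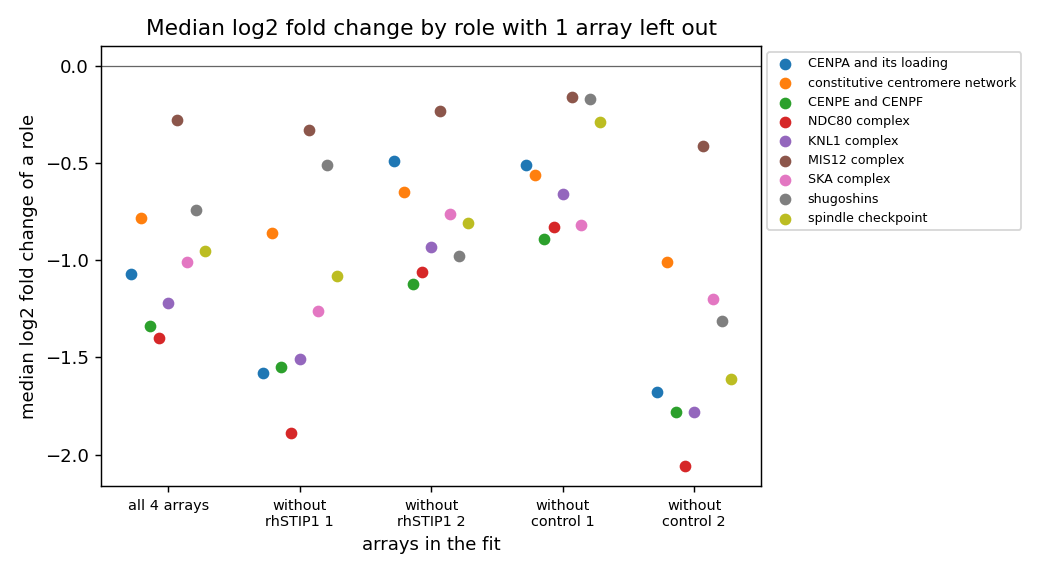
Median log2 fold change of each role, rhSTIP1 minus control (y axis), with all 4 arrays and with each array left out (x axis). All 9 medians stay below 0 in each fit, between -0.16 and -0.89 without control array 1 and between -0.41 and -2.06 without control array 2.

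Other probe sets of the same genes, where bright enough, mostly gave the same direction. Members had 74 probe sets of their own, 59 of them at or above the level needed for testing, and 13 members had more than 1 such probe set. Dimmer probe sets went in both directions and were left out of the counts below. Of the 21 probe sets that were not chosen for these 13 genes, 20 were lower on average with rhSTIP1 and 8 were separated. For all tested genes, each read from 1 probe set, these shares were 46.8% and 3.79%. Probe sets of a gene read the same samples and are not replicates. Within a gene the log2 difference ranged over a median of 0.29, and over 1.07 at most, for CENPI. For SGO2 its probe sets were alike to within rounding, and the 3 of CENPU were all separated. For CENPO the second probe set had a log2 difference of -0.47, with no overlap but under the size limit.

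Kinetochore partners outside the 39 genes were read from a list of 27, of which 25 were tested. Of these 21 were below 0, against 46.8% of all tested genes, with a median of -0.93. Separated were 12, against 3.79% of all tested genes, and 12 were lower at an unadjusted p under 0.05, against 2.64%. SPAG5, a spindle and kinetochore protein, had signals of 698 and 694 with rhSTIP1 and 2278 and 1454 in the controls (-1.37 ± 0.28). SPDL1, which recruits dynein to the kinetochore, had 1114 and 1084 with rhSTIP1 and 3383 and 2197 in the controls (-1.30 ± 0.27). KIF2C, a kinesin that depolymerises microtubules at the centromere, had 1484 and 1142 with rhSTIP1 and 4462 and 2706 in the controls (-1.41 ± 0.30). The groups were well apart for all 3.

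Among 17 regulators of mitotic gene transcription the median was -0.19, and 12 were below 0, against 46.8% of all tested genes. MYBL2, which joins MuvB to activate mitotic genes, had signals of 541 and 632 with rhSTIP1 and 1549.6 and 1289 in the controls (-1.25 ± 0.24). FOXM1, an activator of G2 and mitosis genes, had 401 and 326 with rhSTIP1 and 811 and 604 in the controls (-0.92 ± 0.27). RBL1, a pocket protein of the DREAM complex, had 218 and 401 with rhSTIP1 and 484 and 459.7 in the controls (-0.64 ± 0.33). These were among the 4 of the list that were separated lower, against 3.79% of all tested genes. Other DREAM subunits were chosen after their values were seen. E2F4 (0.07 ± 0.24) and RBL2 (-0.02 ± 0.25) had fold changes near 0. Of the MuvB core, LIN9 was the remaining separated gene (-0.73 ± 0.40). LIN37 (-0.51 ± 0.30), LIN54 (-0.45 ± 0.34) and LIN52 (-0.18 ± 0.25) had no overlap but missed the size limit, and RBBP4 had 0.08 ± 0.24. Over the list, 7 genes had no overlap in the lower direction, against 14.9% of all tested genes. In the higher direction 2 had none, CDKN1A (0.48 ± 0.26) and TFDP2 (0.09 ± 0.22), against 14% of all tested genes.

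Replication genes of G1 and S phase were set beside the members because both groups are tied to proliferation. Of the 21 tested, 20 were below 0, against 46.8% of all tested genes, with a median of -0.30. Separated were 6, against 3.79% of all tested genes. Over the list, rhSTIP1 array 1 had median differences of -0.70 and -0.83 from control arrays 1 and 2. Those of rhSTIP1 array 2 were 0.06 and -0.05, so the list was lower mainly on rhSTIP1 array 1. Signals of RRM2, which belongs to ribonucleotide reductase, were 772 and 2394 with rhSTIP1 and 5460.1 and 4093 in the controls (-1.78 ± 0.48). TYMS, which makes thymidylate, had 7331 and 5279 with rhSTIP1 and 15985 and 8804 in the controls (-0.93 ± 0.31). The replication licensing factor CDT1 had 219 and 417 with rhSTIP1 and 602 and 612 in the controls (-0.97 ± 0.33). All 3 were separated, with rhSTIP1 array 1 the lowest array for RRM2 and CDT1. The rhSTIP1 arrays differed in the opposite direction from the kinetochore genes, with a median difference of 0.77 (array 2 minus array 1). Here rhSTIP1 array 2 lay below array 1 for 1 of the 21 replication genes, against 46.4% of all tested genes. For 30 of the 38 members it lay below. The difference between the lists was not tested.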

How the data were processed

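RNA from 4 SKOV3 samples was measured on 54675 Affymetrix probe sets, 62 of them controls. The authors deposited 1 linear intensity for each probe set and array, and per the submitters' processing notes MAS5 and Affymetrix Expression Console 1.1 were used. The table held no detection calls and no genome build. Symbols came from the platform annotation: 41091 probe sets had 1 symbol, 1801 several and 11721 none. Gene identifiers were checked against RefSeq (GRCh38.p14), and 0 symbols changed.

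Genes were tested where the mean signal of their brightest probe set reached 69.4, the median over probe sets. The comparison used lmFit and eBayes of limma 3.58.1 (R 4.3.3) on log2(signal + 16), with a trend for intensity, two-sided tests, 2 residual and 5.56 prior degrees of freedom. Fold changes on this scale understate those of dim genes. No p was adjusted over the members alone. Promoters were scanned with Python 3.11.15.

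Genes with values on every array were, in each role, the 3 with the smallest unadjusted p and the one nearest 0, and likewise the first 3 of each further list. CENPA was added for its role, and promoters were limited to 3 genes at each end. Members and lists were chosen with earlier results of these data known. The fitting steps were tested on simulated data. Alternatives covered pseudocount, filter, scaling, probe set choice, replicate block, eBayes settings and leaving out each array. Precision is limited by the number of arrays.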

Additional observations from a re-analysis of the deposited data

How the results depend on the processing

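Of the 38 members 34 had a log2 fold change below 0 under every setting in which they were tested. The exceptions were MIS12, SGO1, CENPC and BUB3. Leaving out control array 2 gave -0.48 for SGO1, -0.67 for CENPC and -0.72 for BUB3, and leaving out control array 1 gave 0.64, 0.02 and 0.00 for these genes, the ends of their ranges with 1 array left out. The median over members lay between -0.86 and -1.01 for the pseudocounts, filters, scalings, probe set choices and eBayes settings, and between -0.71 and -1.42 with 1 array left out. The number separated lay between 20, with median centring, and 27 over the same settings, where 2.85% to 6.23% of all tested genes were, and between 20 and 33 with 1 array left out, where 5.32% to 8.41% were. The number lower at an unadjusted p under 0.05 lay between 19 and 23 over the same settings, where 1.89% to 3% of all tested genes were, and between 9 and 29 with 1 array left out, where 1.28% to 3.99% were. Genes past an adjusted p of 0.05 numbered 1 with a filter at the 70th percentile, 2 with robust eBayes, and 0 to 6 with 1 array left out, none of them a member. Such fits take the spread of the group with 1 array from the other group. Including probe sets with several symbols, an alternative chosen after seeing the data, left 26 separated.

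The titles number the replicates 1 and 2 in both groups, but do not say what a number shares. Deviations of same-numbered arrays correlated at 0.36 over all tested genes. With the replicate number as a block, 247 genes and 22 members passed an adjusted p of 0.05, all 22 lower, and 32 members were lower at an unadjusted p under 0.05, against 5.62% of all tested genes. That fit leaves 1 residual degree of freedom for each gene. The cause was not tested.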
